A study of Mus musculus with 3 samples.

Results

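A small group of cells within a bone marrow library of early innate lymphoid progenitors carried transcripts of group 2 innate lymphoid cells (ILC2). The cells are called ILC2-committed-like here, and they were chosen by a measured value in the library ILCpro_WT, as cells whose unique transcript counts (UMIs) of Icos, Stab2, Il17rb, Il1rl1 and Pxdc1 summed to 3 or more. That rule took 67 of 1829 kept ILCpro_WT cells, or 3.66% (exact Clopper-Pearson 2.85 to 4.63), out of 3355 kept cells in the series. Since the 5 genes chose the cells, their values are given as a description and support nothing else. The name was checked on the other markers listed for it, Gata3 and Arg1, which the rule did not read, and both stood higher in these cells than in the rest of the library, as given below.

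The series holds 3 sorted bone marrow populations from C57BL/6 mice, each measured as 1 library of 10x Chromium v2 chemistry. ILCpro_WT was sorted as Lin- Kit+ 2B4+ a4b7+ Tcf7+ from Tcf7EGFP/+ mice, so its cells carried a reporter on 1 Tcf7 allele and the name WT stands for a heterozygote. ILCpro_KO came through the same gate from Tcf7EGFPnull/- mice. The third library, ALP, holds lymphoid progenitors of Tcf7EGFP/+ mice from a gate of high Flt3 (Flt3high), IL-7Ra+ and a4b7-, which were also Lin- Kit+ 2B4+. The labels do not give ages, nor the number of mice behind a library. A group is 1 library without replicates, and no test or p-value was computed. Intervals in parentheses are exact 95% limits and cover counting error only, and cells of 1 library are not replicates.

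ILC2 are tissue-resident lymphocytes without antigen receptors that answer the epithelial cytokines IL-33, IL-25 and TSLP with type 2 cytokines. They arise in the marrow from precursors that carry TCF-1 (the product of Tcf7), PLZF (the product of Zbtb16) and PD-1 (the product of Pdcd1). The path to ILC2 depends on GATA3, RORα and Bcl11b, and ILC2 progenitors are known to turn down PLZF and to gain the receptors ST2, IL-17RB and ICOS.

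Of the 5 genes of the rule, Icos encodes a costimulatory receptor that marks ILC2 (GRCm38 chromosome 1, 60977927 to 61000320, plus strand), and Il1rl1 encodes the IL-33 receptor chain ST2 (chromosome 1, 40429570 to 40465415, plus strand). Il17rb encodes a chain of the IL-25 receptor (chromosome 14, 29996135 to 30008896, minus strand). Stab2 encodes stabilin-2, a scavenger receptor best known from sinusoidal endothelium (chromosome 10, 86841198 to 87008025, minus strand), and Pxdc1 encodes a PX domain protein (chromosome 13, 34627834 to 34653486, minus strand). GATA3 is a DNA-binding factor, and its gene stood apart in these cells. The 250 bases before the RefSeq start of rule genes are therefore printed, written 5′ to 3′ on the gene's strand from the GRCm38.p6 table. Capitals mark matches, on either strand, to the hexamer AGATAA or its variants AGATAG as well as TGATAA besides TGATAG, the letters that GATA factors bind.
Il1rl1, upstream start, chr1:40429320-40429569: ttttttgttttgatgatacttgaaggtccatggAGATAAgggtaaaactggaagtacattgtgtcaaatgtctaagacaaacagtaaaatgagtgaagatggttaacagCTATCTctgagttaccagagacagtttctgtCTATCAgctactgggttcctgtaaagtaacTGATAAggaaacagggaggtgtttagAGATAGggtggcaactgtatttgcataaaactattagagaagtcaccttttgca
Il1rl1, downstream start, chr1:40439379-40439628: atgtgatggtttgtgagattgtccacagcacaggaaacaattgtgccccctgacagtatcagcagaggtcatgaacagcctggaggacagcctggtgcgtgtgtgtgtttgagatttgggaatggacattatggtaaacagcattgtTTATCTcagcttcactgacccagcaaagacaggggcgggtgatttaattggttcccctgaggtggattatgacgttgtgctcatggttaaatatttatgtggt
Stab2, chr10:87007943-87008192: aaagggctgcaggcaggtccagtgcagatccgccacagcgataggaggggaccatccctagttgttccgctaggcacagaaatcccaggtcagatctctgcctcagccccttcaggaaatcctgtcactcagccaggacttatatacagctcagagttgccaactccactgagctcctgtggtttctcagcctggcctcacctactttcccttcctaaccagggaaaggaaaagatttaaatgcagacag
Il17rb, chr14:30008897-30009146: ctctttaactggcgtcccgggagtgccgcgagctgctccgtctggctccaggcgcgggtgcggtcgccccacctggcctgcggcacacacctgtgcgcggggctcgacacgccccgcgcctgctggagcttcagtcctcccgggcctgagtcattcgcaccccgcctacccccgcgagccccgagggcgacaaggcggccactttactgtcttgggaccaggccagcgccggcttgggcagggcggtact
The upstream Il1rl1 window held 5 matches and the downstream one 1, while the windows of Stab2, Il17rb and Pxdc1 held 0. Of all 32851 windows of this length, 26.5% held at least 1 match and 1.35% held 3 or more. A match is a run of letters and not evidence of binding, and Icos was not searched.

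Among the 67 cells, Icos was found in 56 cells with 131 UMIs and Stab2 in 43 cells with 135 UMIs, up to 12 in a single cell. Pxdc1 was found in 29 cells (42 UMIs), Il17rb in 23 cells (30 UMIs) and Il1rl1 in 8 cells (10 UMIs). Icos and Stab2 together thus gave most of the sum, and 33 cells held both of them. Most cells showed more than 1 rule gene: 27 cells showed 2, 25 showed 3 and 5 showed 4, against 10 with 1 and 0 with all 5. Without Icos in the sum 31 cells would drop out, without Stab2 20, and without Il1rl1 2. In the rest of the library the same genes were found in 67 cells for Icos, 75 for Il17rb, 30 for Stab2, 8 for Il1rl1 and 7 for Pxdc1, of 1762 cells.

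The 5-gene sum was 0 in 1591 ILCpro_WT cells, 1 in 141 and 2 in 30, and it reached 3 or 4 in 17 cells each and 16 in the highest cell. No cell of the other libraries met the rule. In ILCpro_KO the sum was at most 2, with 49 cells at 1 and 6 at 2 of 716, and 0 of 716 cells allows a share of up to 0.419% of cells when 3 cells are taken as the limit of a count of 0, as for each 0 below. The exact Clopper-Pearson upper limit is 0.514%. In ALP 33 cells had a sum of 1 and 1 cell a sum of 2, and 0 of 810 allows up to 0.370% (exact 0.454%). Both libraries were deeper than ILCpro_WT, with a median of 5309 UMIs per cell in ILCpro_KO and 4544.5 in ALP against 2897. Stab2 had 0 UMIs in either of them, while Il17rb had 32 UMIs in ILCpro_KO. With 1 library each, the genotype and the library cannot be told apart.

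The 67 cells held 190879 UMIs, from 1119 to 7462 per cell with a median of 2576, against a median of 2908.5 in the other 1762 ILCpro_WT cells. A second comparison group of 511 cells had at least 2 UMIs of Rora and 1 of Id2, 2 genes of ILC precursors, and a 5-gene sum below 3, and these are called Rora-high cells. Their median of 2549 UMIs was close to that of the ILC2-committed-like cells. No ILC2-committed-like cell shared its barcode with another library, and 5 barcodes in all were shared between ILCpro_WT and the other libraries. Ribosomal protein genes took 33.1% of their UMIs, against 38.7% in the rest and 39.1% in Rora-high cells. Levels below are UMIs of a group divided by the total of the group and multiplied by 1000000 (CPM), and 3 UMIs in the 67 cells equal 15.7 CPM.

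**Figure D1:**
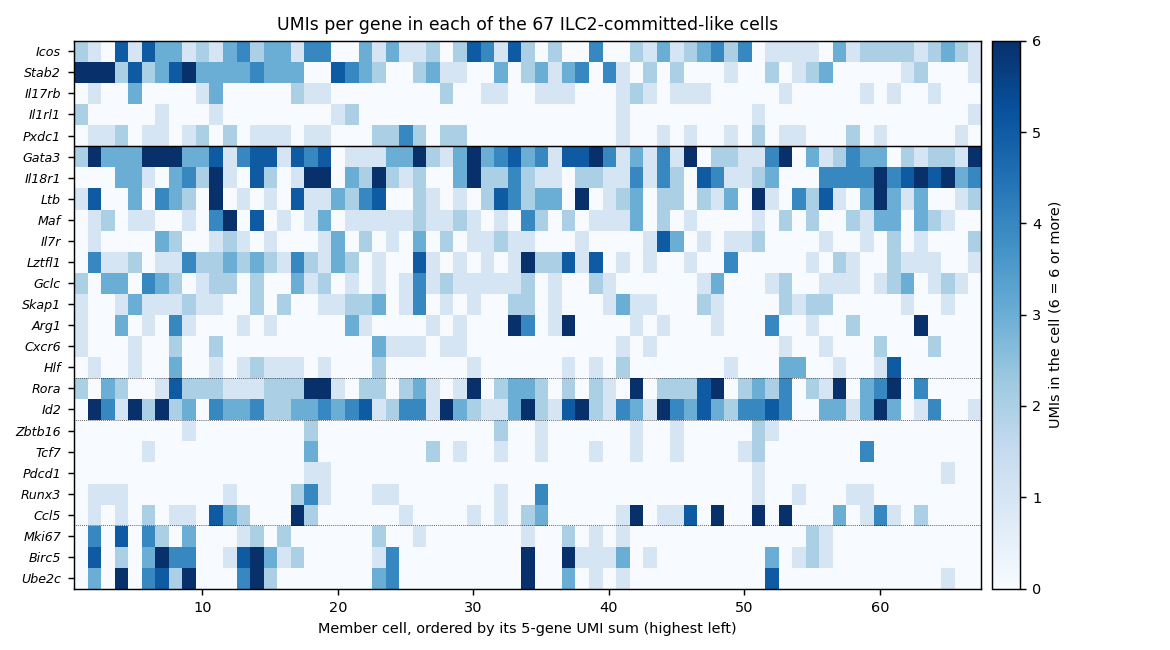
UMIs of 5 rule genes (top block) and 21 other genes in each of the 67 ILC2-committed-like cells, ordered by the 5-gene sum with the highest at the left; darker blue is more UMIs, and 6 stands for 6 or more. Gata3 was found in 63 cells, Id2 in 60 and Il18r1 in 53, while Zbtb16 was found in 8 and Pdcd1 in 4.

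Gata3, whose product is required for ILC2, was found in 63 of the 67 cells, with a median of 3 and at most 13 UMIs per cell. Its level was 1174 CPM (1025 to 1338), against 312 CPM in the rest of the library and 600 CPM in Rora-high cells. It was thus 3.76-fold (3.26 to 4.32) above the rest and 1.96-fold (1.69 to 2.27) above Rora-high cells. With every cell thinned to 1000 UMIs, which left out 4 cells of the rest, a Gata3 UMI was found in 56.7% (44.0 to 68.8) of the ILC2-committed-like cells, 44.2% (39.9 to 48.7) of Rora-high cells and 27.1% of the rest. The thinned share was 11.7% in 60 cells of the same library with MHC class II transcripts (median 2797 UMIs), 3.21% in ALP and 7.68% in ILCpro_KO. Without thinning Gata3 was found in 94.0% of the ILC2-committed-like cells, 75.0% of Rora-high cells, 27.9% of the class II cells and 13.8% of ALP.

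Arg1, the arginase that ILC2 and their marrow progenitors are known to express, was found in 22 of the 67 cells, with at most 6 UMIs in a cell. It stood at 267 CPM (199 to 351), against 28.3 CPM in the rest and 72.4 CPM in Rora-high cells, or 3.69-fold (2.60 to 5.17) above the latter. After thinning to 1000 UMIs it was found in 19.4% (10.8 to 30.9) of the ILC2-committed-like cells, 6.46% of Rora-high cells and 2.73% of the rest. It was found in 0 of 60 class II cells, which allows up to 5%, and in 0 of 810 ALP cells. The unthinned shares were 32.8%, 15.3% and 6.36% in the first 3 groups, and 2 of 61 class II cells held an Arg1 UMI. Arg1 was therefore seen in a minority of the cells, with or without thinning.

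Over all genes, 233 of 3183 with at least 50 CPM in the higher group (7.32%) were at least 2-fold higher in the ILC2-committed-like cells than in the rest of the library, and 129 (4.05%) were at least 2-fold lower. Against Rora-high cells 271 of 3209 (8.44%) were higher and 138 (4.3%) lower. These counts leave out the 5 rule genes and use log2 ratios with 10 CPM added to both levels. They moved with the settings, as the closing section gives. The gene lists described next count genes with at least 5 CPM in either group, for which 4.56% of all genes were at least 2-fold higher and 5.14% lower than in the rest, and 5.47% higher and 5.54% lower than in Rora-high cells.

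**Figure D2:**
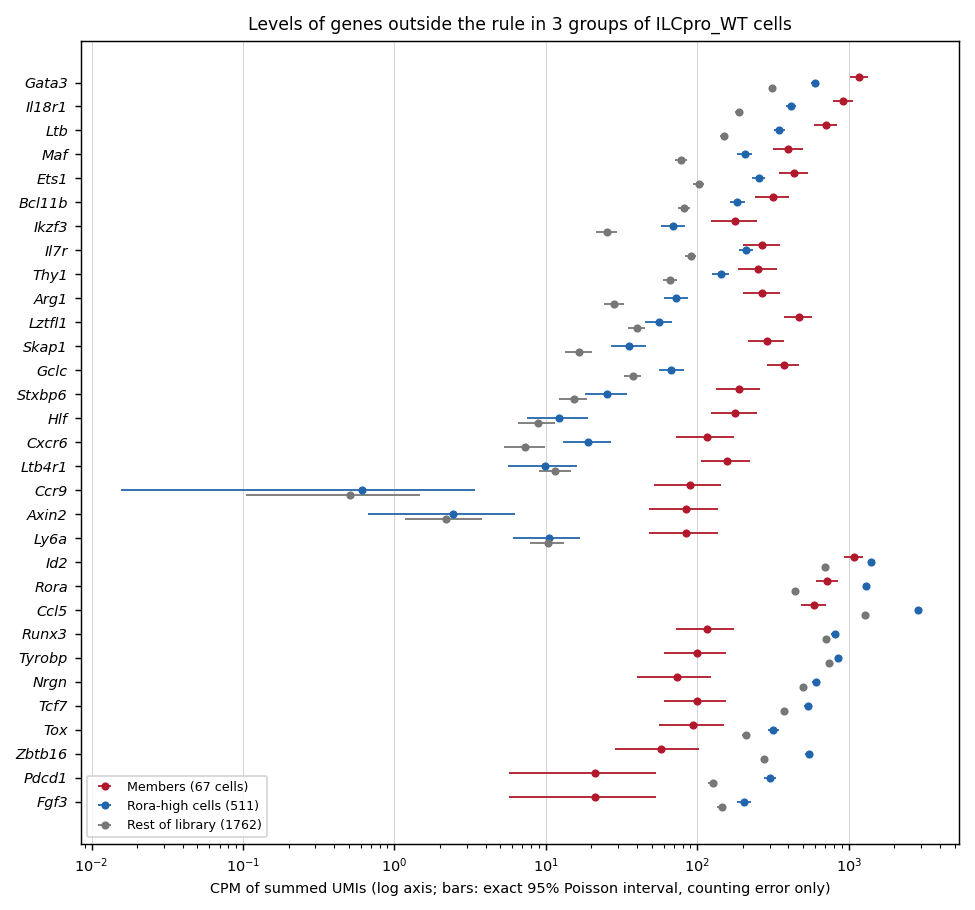
Levels of 31 genes outside the rule in CPM (log axis) in the 67 ILC2-committed-like cells (red), 511 Rora-high cells (blue) and the other 1762 cells of the library (grey, Rora-high cells included), with exact 95% Poisson intervals. From Gata3 to Ly6a the red points lie to the right of both other groups, and from Ccl5 to Fgf3 they lie to the left.

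Transcription factors of the ILC2 path split in their direction. Of 24 measured factors 6 were at least 2-fold higher than in the rest (Gata3, Pparg, Maf, Ets1, Ikzf3 and Bcl11b) and 4 were lower (Tox, Zbtb16, Tcf7 and Nfil3), with a median log2 ratio of 0.49 beside 0.08 for all genes. Maf, a bZIP factor that tunes type 2 programmes, stood at 398 CPM (314 to 498) against 78.3 in the rest and 205 in Rora-high cells. Bcl11b, a zinc finger factor that upholds ILC2 identity, stood at 314 CPM (240 to 405), 82.0 and 184 CPM in the same order. Ets1, needed for ILC2 development, stood at 435 CPM (346 to 539), 102 and 255 CPM. These 3 factors had a graded pattern, with Rora-high cells between the other groups. Ikzf3, an Ikaros family factor, stood at 178 CPM (123 to 249), 25.2 and 69.4 CPM, which is 2.57-fold (1.70 to 3.8) above Rora-high cells.

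Against Rora-high cells 3 of 23 measured factors were at least 2-fold higher (Bhlhe40, Pparg and Ikzf3, of which Bhlhe40 had a log2 ratio of 0.0 among cells in G1 alone) and the same 4 as above were lower, with a median of 0.06. Pparg rested on 3 UMIs, 12.8-fold (1.47 to 153) above Rora-high cells. Rora and Id2 had been used to choose the Rora-high cells, so their levels there are set by that choice. In the ILC2-committed-like cells Rora stood at 723 CPM (607 to 854), found in 48 cells, and Id2 at 1079 CPM (937 to 1237), found in 60 cells, while the rest stood at 440 and 699 CPM. Of the list of E proteins and the Id factors that restrain them, 0 of 4 measured genes (Tcf3, Tcf4, Tcf12 and Id2) were past 2-fold in either comparison, Id2 being also a gene that chose the Rora-high cells. Tcf3 stood at 78.6 CPM (44.0 to 130) against 117 in the rest and 109 in Rora-high cells, and Tcf4 at 68.1 CPM (36.3 to 116) against 95.2 and 126.

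Receptors known from ILC2, other than those of the rule, were more often higher than lower where measured. Among the 29 on the list 11 had 0 UMIs in the 67 cells. Of 22 measured receptors 8 were at least 2-fold higher than in the rest and 4 lower (median 0.45). Against Rora-high cells 6 of 20 were higher (Il18r1, Cysltr1, Tnfrsf18, Crlf2, Ltb4r1 and Ly6a) and 3 lower (Tnfrsf9, Il10ra and Il2rb), with a median of 0.36 beside 0.09 for all genes. Il18r1, the IL-18 receptor chain found on marrow ILC2 progenitors, was detected in 53 of the 67 cells, with a median of 2 and at most 9 UMIs. Its level was 922 CPM (791 to 1069), against 189 in the rest and 414 in Rora-high cells. The ratio to Rora-high cells was 2.23-fold (1.87 to 2.63). With Icos left out of the rule, which kept 36 cells, the log2 ratio of Il18r1 was 0.31 in place of 1.14. Il18r1 (chromosome 1, 40465552 to 40500854, plus strand) lies just downstream of Il1rl1 on the same strand.

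Ltb4r1, a receptor of leukotriene B4, was found in 19 of the 67 cells and stood at 157 CPM (106 to 224), against 11.5 in the rest and 9.82 in Rora-high cells. That is 16-fold (8.45 to 31.4) above Rora-high cells. Cysltr1, a receptor of cysteinyl leukotrienes on ILC2, had 9 UMIs in 8 cells and was 15.4-fold (4.62 to 58.4) above Rora-high cells. Tnfrsf18, which encodes GITR, stood at 99.5 CPM (59.9 to 155) against 26.6 and 41.7 CPM. Crlf2, a chain of the TSLP receptor, stood at 94.3 CPM (55.9 to 149), 2.44-fold (1.36 to 4.17) above Rora-high cells. The common lymphoid receptors were less far apart from Rora-high cells. Il7r stood at 267 CPM (199 to 351) against 210, and Il2rg at 231 CPM (167 to 309) against 179, with intervals of the ratio that include 1. Thy1 stood at 251 CPM (185 to 333) against 143 CPM. Ly6a, which encodes Sca-1, had 16 UMIs in 13 cells and was 8.03-fold (3.8 to 16.9) above Rora-high cells, but among cells in G1 alone its log2 ratio was -0.51.

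Genes that mark mature or activated ILC2 were at or near 0. Klrg1 and Ptgdr2 had 0 UMIs in the 67 cells, Il2ra had 2, Il13 had 1 and Il4 had 3, while Il5 and Areg had 0. Of 23 effector genes 16 had 0 UMIs in these cells. Among the 8 measured effectors 3 were at least 2-fold higher than in Rora-high cells (Calca, Arg1 and Il4) and 0 lower, with a median of 0.35 that was -0.11 when each cell counted equally. Calca, whose transcript gives the neuropeptide CGRP, had 6 UMIs in 5 cells against 1 UMI in 511 Rora-high cells, a 51.2-fold ratio (6.21 to 2356). The markers thus covered the early receptors and Arg1, not the cytokines, at this depth.

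Genes of the ILC precursor stage were lower as a group. Zbtb16, Tcf7, Tox and Ets1 are on this list and also among the ILC2 factors above, so they are counted in both. Of 20 measured precursor genes 8 were at least 2-fold lower than in the rest and 3 higher (median -0.70), and 11 were lower than in Rora-high cells and 2 higher (median -1.28). Zbtb16 was found in 8 of the 67 cells, with at most 2 UMIs, and 11 UMIs in all. It stood at 57.6 CPM (28.8 to 103), against 278 in the rest and 546 in Rora-high cells, which is 9.47-fold (5.27 to 19.0) lower than the latter. After thinning to 1000 UMIs Zbtb16 was found in 1 of the 67 cells, 1.49% (0.0378 to 8.04), against 42.5% of Rora-high cells, 8.33% of class II cells and 0 of 810 ALP cells. Without thinning the shares were 11.9%, 73.8%, 18.0% and 0.123%. Detection of Zbtb16 in these cells was therefore not above that in the class II cells.

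Pdcd1 had 4 UMIs in 4 cells, at 21.0 CPM (5.71 to 53.7) against 126 in the rest and 301 in Rora-high cells, 14.4-fold (5.58 to 53.0) lower than the latter. Tcf7, whose reporter was part of the sort, was found in 12 of the 67 cells. It stood at 99.5 CPM (59.9 to 155) against 371 and 538 CPM, 5.40-fold (3.44 to 9.01) below Rora-high cells. Runx3, a Runt factor of ILC1 and ILC3, stood at 115 CPM (72.2 to 174) against 713 and 808 CPM. Tox and Tox2, HMG box factors of the early ILC path, stood at 94.3 and 136 CPM against 318 and 523 CPM in Rora-high cells. Ccl5, a chemokine, was uneven, since 27 of its 112 UMIs lay in 1 cell. Its level of 587 CPM (483 to 706) compares with 2846 CPM in Rora-high cells.

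Of the other genes of the sort, Kit and Cd244 were low as transcripts and the integrin genes were not. Kit had 7 UMIs, at 36.7 CPM (14.7 to 75.6) against 98.8 in Rora-high cells. Cd244, the gene of 2B4, had 0 UMIs and was at least 2.69-fold lower than in Rora-high cells, taking 3 UMIs over the 67 cells as the floor. Cxcr5 also had 0 UMIs and was at least 2.73-fold lower. The integrin genes Itga4 and Itgb7, whose products form the a4b7 of the gate, stood at 372 CPM (291 to 469) and 147 CPM (97.5 to 212), against 390 and 99.4 CPM. The gate reads surface protein and the reporter, which these transcript levels do not measure. The exceptions among precursor genes were Ltb and Cxcr6. Ltb, a lymphotoxin chain, was found in 47 cells at 707 CPM (593 to 837) against 349 CPM, and Cxcr6 stood at 115 CPM (72.2 to 174) against 19.0 CPM.

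Genes of earlier stages were also lower, on a list that shares Tox2 with the precursor list and Nfil3 with the ILC2 factors. Of 15 measured genes of early ILC progenitors 10 were at least 2-fold lower than in the rest and 1 was higher (median -1.23), and against Rora-high cells 6 of 14 were lower and 1 higher. Fgf3 stood at 21.0 CPM (5.71 to 53.7) against 145 in the rest and 203 in Rora-high cells. Nfil3, an early regulator of ILC fate, had 2 UMIs, 7.19-fold (1.98 to 59.6) lower than in the rest. The single gene that was higher in both comparisons was Hlf, a bZIP factor known from blood stem cells. It was found in 21 of the 67 cells at 178 CPM (123 to 249), against 8.81 in the rest and 12.3 in Rora-high cells.

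**Figure D3:**
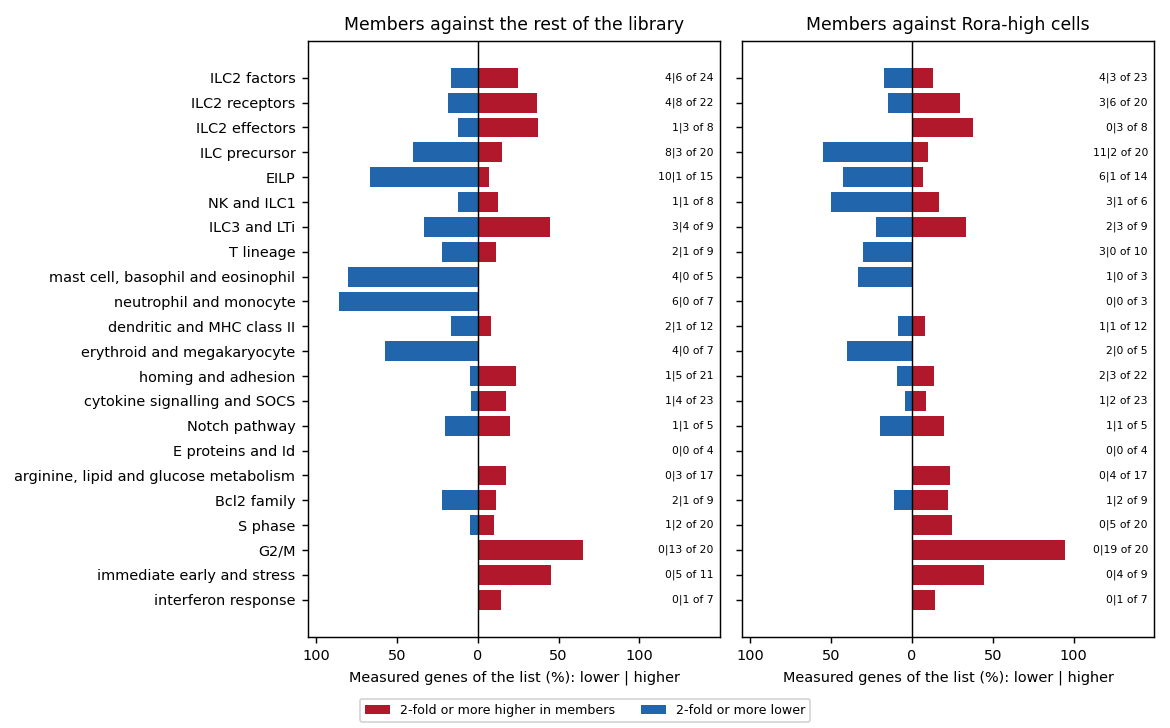
Share of the measured genes of each list that were at least 2-fold higher (red) or lower (blue) in the 67 ILC2-committed-like cells than in the rest of the library (left) and than in Rora-high cells (right), in percent of the measured genes; the figures at the right give lower, higher and measured. The ILC precursor list had 8 lower and 3 higher of 20 at the left and 11 lower and 2 higher of 20 at the right, and the G2/M list 13 and 19 higher of 20.

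Beyond the lists, several genes stood far above both comparison groups. Lztfl1, a leucine zipper protein of ciliary transport, was found in 43 of the 67 cells, with a median of 1 and at most 6 UMIs. It stood at 466 CPM (374 to 574), against 39.8 in the rest and 55.8 in Rora-high cells, 8.35-fold (6.16 to 11.3) above the latter. Gclc, the catalytic subunit of the enzyme that starts glutathione synthesis, was found in 41 cells at 372 CPM (291 to 469), against 37.4 and 67.5 CPM. Skap1, an adaptor of lymphocyte adhesion signalling, was found in 35 cells at 288 CPM (217 to 375), against 16.4 and 35.6 CPM. Each of these genes was thus seen in more of the cells than Arg1 was.

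Stxbp6, a syntaxin-binding protein, was found in 26 cells and was 7.5-fold (4.65 to 12.0) above Rora-high cells. Axin2, a feedback gene of Wnt signalling, had 16 UMIs in 15 cells and was 34.1-fold (11.0 to 140) above them. Rasgrp1, an activator of Ras, had 10 UMIs in 10 cells at 52.4 CPM (25.1 to 96.3) against 3.68 CPM. Also among the 15 genes furthest above the rest were Ahcyl2 (299 against 51.8 CPM), St3gal6 (147 against 19.8 CPM) and Zfp36l1 (194 against 32.5 CPM). In these last 3 genes Rora-high cells lay between, at 117, 50.9 and 67.5 CPM.

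Lztfl1 sits in a cluster of chemokine receptor genes on chromosome 9. Its span (123694416 to 123717697, minus strand) lies inside that of Ccr9 (123678439 to 123784330, plus strand), and Cxcr6 (123806475 to 123811760, plus strand) follows. Ccr9, a gut-homing receptor, had 17 UMIs in 9 cells at 89.1 CPM (51.9 to 143), against 3 UMIs in the 1762 other cells, a 175-fold ratio (50.7 to 933). Cxcr6, a receptor for CXCL16, was 15.8-fold (9.01 to 27.0) above the rest. Fyco1, which overlaps Cxcr6 on the minus strand and was looked up after the values were seen, stood at 15.7 CPM (3.24 to 45.9) against 13.4 CPM in the rest. Genes of this stretch of the chromosome were therefore not alike in their ratios.

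Few of the other homing genes passed 2-fold. Of 22 measured homing and adhesion genes 3 were at least 2-fold higher than in Rora-high cells (Cd44, Ccr9 and Cxcr6) and 2 lower, with Ccr7 among the lower. In the Notch pathway, Notch2 stood at 231 CPM (167 to 309) against 79.2 CPM in Rora-high cells, while Hes1, a Notch target, had 0 UMIs and was at least 5.86-fold lower than the 92.1 CPM of Rora-high cells. Bcl2, which guards lymphoid survival, stood at 430 CPM (342 to 533) against 1245 in the rest and 1603 in Rora-high cells. Ldha, of lactate metabolism, stood at 744 CPM (627 to 877) against 341 CPM in Rora-high cells.

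Among the 15 genes furthest below Rora-high cells, Igfbp7 had 0 UMIs and was at least 9.41-fold lower than their 147.9 CPM. Pgam2 had 0 UMIs and was at least 5.51-fold lower, and Emid1 had 1 UMI, 17.8-fold lower (3.15 to 708). Tyrobp, which encodes the signalling adaptor DAP12, stood at 99.5 CPM (59.9 to 155) against 854 CPM, and Nrgn at 73.3 CPM (40.1 to 123) against 607 CPM. Tnni1 had 7 UMIs, 8.82-fold lower (4.25 to 22). In the rest of the library these genes lay between, at 53.9 CPM for Igfbp7, 742 for Tyrobp and 499.5 for Nrgn.

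Lists of markers of other cell types that a marrow sort could hold were summed in the 67 cells. Of 15 neutrophil and monocyte genes 12 had 0 UMIs, and the list summed to 36.7 CPM against 516 CPM in the rest and 46.6 in Rora-high cells. Of 17 mast cell, basophil and eosinophil genes 15 had 0 UMIs, and the list summed to 57.6 CPM against 352 and 87.1 CPM in the same order. These lists were thus far below the rest and nearer to Rora-high cells. Prss34 and Elane had 0 UMIs and Mpo 1. B lineage genes summed to 62.9 CPM against 50.1 and 40.5 CPM. The T lineage list summed to 346 CPM against 318 and 423, with Lat at 178 CPM (123 to 249) and Lck at 73.3 CPM (40.1 to 123), while Cd247 had 0 UMIs. Of 13 endothelial and macrophage genes 12 had 0 UMIs, Stab1 among them, although Stab2 is known from endothelium. That list summed to 89.1 CPM, all from the single gene detected, against 136 CPM in the rest and 138 CPM in Rora-high cells. The class II and dendritic list summed to 922 CPM, below the 1283 CPM of the rest and above the 686 CPM of Rora-high cells, and 1 of the 67 cells carried at least 5 class II UMIs.

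NK, ILC1 and ILC3 genes gave a mixed picture. Of 20 NK and ILC1 genes 15 had 0 UMIs, and of 6 measured against Rora-high cells 3 were lower (Nkg7, Eomes and Il2rb) and 1 was higher. Tnfsf11, which encodes RANKL, had 6 UMIs. Of the 17 ILC3 and lymphoid tissue inducer genes 11 had 0 UMIs.

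More of the ILC2-committed-like cells were scored in cycle than of the Rora-high cells. Phase scores from S and G2/M genes put 29 cells in G1, 21 in S and 17 in G2/M. The G2/M share of 25.4% (15.5 to 37.5) compares with 11.4% (9.96 to 13.0) of the rest and 3.13% (1.80 to 5.04) of Rora-high cells. After thinning to 1000 UMIs, at least 2 UMIs of the 20 G2/M genes were found in 34.3% (23.2 to 46.9) of the cells, 15% of the rest and 5.09% of Rora-high cells. Of the 20 G2/M genes 13 were at least 2-fold higher than in the rest (median 1.05) and 19 than in Rora-high cells (median 2.00), with 0 lower. Birc5, a mitotic regulator, stood at 393 CPM (309 to 493) against 106 and 47.9 CPM, and Ube2c, which acts in mitotic exit, at 382 CPM (299.8 to 481) against 116 and 42.3 CPM. Of 20 S phase genes 5 were higher than in Rora-high cells. Among cells in G1 alone, 29 of the 67 and 417 Rora-high cells, the log2 ratio was 1.30 for Gata3, 2.98 for Lztfl1 and -2.39 for Zbtb16, beside 0.96, 2.85 and -3.04 over all phases. That of Bcl2 was -0.84 beside -1.88, and the median of the precursor genes was -0.75 beside -1.28. Ube2c had -0.32 in G1 alone, but it is among the G2/M genes that gave the phases. Its level there is therefore partly set by that choice. Immediate early genes, which are known to answer cell handling too, were partly higher. Of 9 measured 4 were at least 2-fold higher than in Rora-high cells, with Jun at 162 CPM (110 to 231) against 61.4 CPM. Their part in the other differences was not tested.

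The level of genes outside the rule was then followed along the 5-gene sum in cells with at least 2 UMIs of Rora and 1 of Id2, so that the cells compared met the same choice on these genes. Of such cells 428 had a sum of 0, 69 a sum of 1, 14 a sum of 2, 19 a sum of 3 or 4 and 17 a sum of 5 or more. The last 36 cells belong to the 67. Gata3 stood at 582, 645, 932, 1131 and 1296 CPM in that order, and Il18r1 at 364, 654, 769, 1041 and 1090 CPM. Both were thus already higher below the threshold, and Gata3 was 1.60-fold (1.14 to 2.20) higher at a sum of 2 than at 0. Bcl11b stood at 171, 212, 443, 377 and 470 CPM, and Skap1 at 26.4, 67.6, 163, 144 and 395 CPM.

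Zbtb16, Runx3 and Tcf7 of the precursor list had another pattern. Zbtb16 stood at 560 CPM (521 to 601), 451 (367 to 548) and 582 (377 to 860) at sums of 0, 1 and 2, then at 108 (39.5 to 234) at 3 or 4 and 93.9 (30.5 to 219) at 5 or more. It was 5.41-fold lower (2.2 to 16.1) at sums of 3 or 4 than at 2, while the ratio of 2 to 0 was 1.04 (0.669 to 1.55). Runx3 stood at 829, 654, 932, 108 and 207 CPM, and Tcf7 at 547, 487, 513, 198 and 75.1 CPM. The levels of these 3 genes at sums of 0 to 2 thus stood apart from those at 3 or more. Pdcd1 stood at 309, 261, 256, 18.0 and 37.6 CPM, resting on 1 and 2 UMIs in the last groups. Ccl5 and Ltb, also on the precursor list, were graded. Ccl5 stood at 2883, 2754, 2167, 1490 and 376 CPM, lower step by step, and Ltb at 325, 464, 513, 736 and 770 CPM, higher step by step. Rora itself stood at 1307, 1204, 1654, 1257 and 996 CPM. The group at a sum of 2 holds 14 cells, so its values are the least certain.

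**Figure D4:**
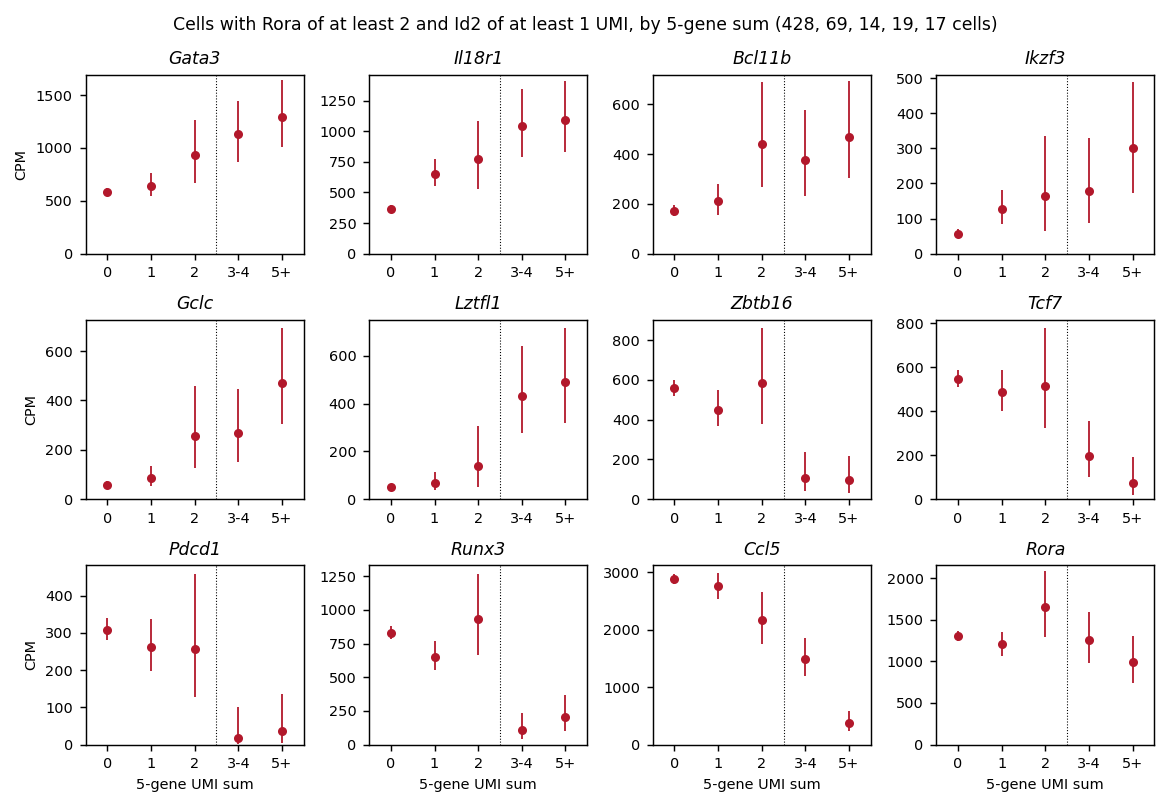
Levels in CPM (linear axes from 0) of 12 genes in cells with at least 2 UMIs of Rora and 1 of Id2, by 5-gene sum (428, 69, 14, 19 and 17 cells), with exact 95% Poisson intervals; cells right of the dotted line met the rule. Gata3 goes from 582 to 1296 CPM over the sums, while Zbtb16 stands between 451 and 582 CPM up to a sum of 2 and at 108 and 93.9 CPM beyond it.

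In the 36 ILC2-committed-like cells that met the same Rora and Id2 choice as the Rora-high cells, Gata3 was 2.02-fold (1.67 to 2.43) above Rora-high cells, Il18r1 2.57-fold (2.09 to 3.13) and Arg1 4.94-fold (3.35 to 7.16). Lztfl1 was 8.22-fold (5.70 to 11.7) above them. Zbtb16 was 5.40-fold (3.0 to 10.9) lower. The differences were therefore also present with Rora matched in this way. Over all cells regardless of Rora, 17 cells lay just inside the threshold, with a sum of 3, and 30 just outside, with a sum of 2. They stood at 1153 (850 to 1528) and 755 (584 to 961) CPM for Gata3. Lztfl1 stood at 240.2 (115 to 442) and 126 (62.8 to 225) CPM, on 10 and 11 UMIs. For both genes the intervals overlap. Zbtb16 stood at 72.0 (14.9 to 211) and 400.4 (279 to 557) CPM, and Runx3 at 96.1 (26.2 to 246) and 767 (594 to 973) CPM. The values of Zbtb16 and Runx3 just inside rest on 3 and 4 UMIs.

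The cells also lay near each other on genes that the rule did not read. Neighbours were found among the ILCpro_WT cells on 30 principal components of variable genes, from which the rule genes were left out. The listed S phase and G2/M genes were left out too, as were genes of the ribosome, the mitochondria and the sex chromosomes. Cell cycle genes outside these lists were not left out, and the part of the cycle in the neighbour shares was not tested. Of the 15 nearest neighbours of an ILC2-committed-like cell, 52.9% on average were such cells themselves, beside their share of 3.66% in the library. The share was 1.03% for the rest and 1.58% for Rora-high cells. It was 51.8% for cells with a sum of 3 and 14.0% for cells with a sum of 2. Single cells differed: 43 of the 67 had a share over 50% and 6 had 0. The mean share was 52.1% when Gata3, Arg1 and the ILC2 receptor and effector genes were left out as well.

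**Figure D5:**
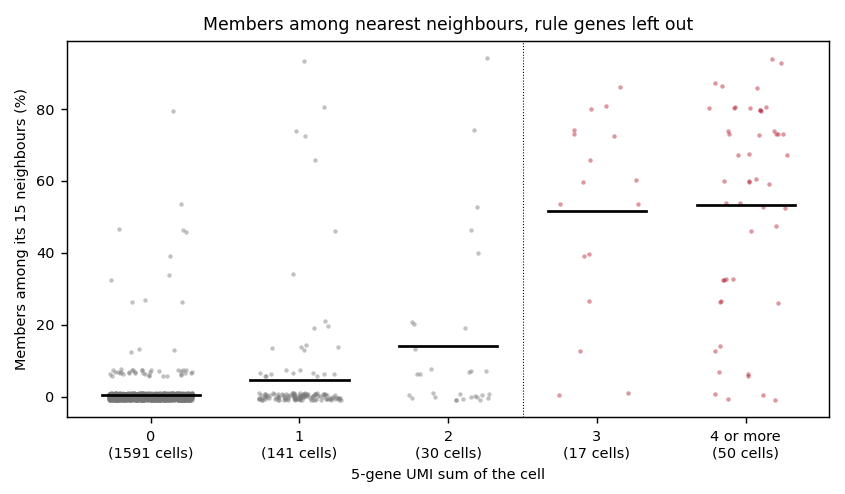
Percent of the 15 nearest neighbours that met the rule, for each ILCpro_WT cell by its 5-gene sum, with the rule genes left out of the neighbour search; points are spread a little for visibility and black bars are means. The bars stand at 51.8% for a sum of 3 and 53.3% for 4 or more, against 14.0% for a sum of 2.

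Clustering on the same neighbours put 49 of the 67 cells, 73.1% (60.9 to 83.2), into 1 cluster of 67 cells. The other 18 cells of that cluster did not meet the rule, with a sum of 0 in 8, 1 in 6 and 2 in 4. These 18 cells stood at 1338 CPM (1028 to 1712) for Gata3, 595 CPM (395 to 860) for Lztfl1 and 42.5 CPM (5.15 to 153) for Zbtb16. On these genes they were like the ILC2-committed-like cells, but other genes were not all alike. Ltb4r1 stood at 63.7 CPM (13.1 to 186) in these 18 cells and 203 CPM (136 to 291) in the 49. Ly6a went the other way, at 255 CPM (132 to 445) and 105 CPM (58.7 to 173). Why these 18 cells had low sums was not tested. Of the 18 ILC2-committed-like cells outside the cluster 16 lay in the cluster that held 279 of the 511 Rora-high cells.

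Cells inside and outside that cluster differed in cycle and in precursor genes. The 49 inside were scored as 14 in G1, 18 in S and 17 in G2/M, and the 18 outside as 15, 3 and 0. Only the listed S phase and G2/M genes, which also gave these scores, were left out of the clustering as cell cycle genes. The 18 outside were shallower, with a median of 1877 UMIs against 2805. Gata3 was alike, at 1216 CPM (1042 to 1411) inside and 1046 CPM (777 to 1379) outside. Zbtb16 had 2 UMIs inside and 9 outside, which is 13.5-fold (2.79 to 128) higher outside. Tcf7 stood at 34.9 CPM (11.3 to 81.5) inside and 293 CPM (160.2 to 492) outside. Rora stood at 503 and 1381 CPM, and Il18r1 at 769 and 1381 CPM. In the other direction Skap1 was 3.34-fold (1.34 to 10.7) higher inside, and 29 of the 30 Ltb4r1 UMIs lay inside. Mki67, looked up after the values were seen, had 34 UMIs inside and 0 outside. Since these clusters were made from the same cells and genes, the values are a description.

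The rule genes also parted the cells. The 43 cells with a Stab2 UMI stood at 435 CPM (331 to 561) for Rora and 243 CPM (168 to 342) for Ccl5, against 1429 CPM (1131 to 1780) for both genes in the 24 cells without one. Tcf7 stood at 51.6 CPM (20.8 to 106) with Stab2 and 217 CPM (112 to 379) without. These cells also differed in cycle and depth: Mki67 had 33 UMIs (243 CPM) with Stab2 and 1 UMI (18.1 CPM) without, and the median was 2845 against 1924.5 UMIs per cell. The part of cycle and depth in the other values was not tested. Gata3 stood at 1273 CPM (1102 to 1464) in the 56 cells with an Icos UMI and 735 CPM (480.0 to 1077) in the 11 without. Arg1 stood at 112 CPM (53.7 to 206) in the 29 cells with Pxdc1 and at 403 CPM (289 to 547) in the 38 without, beside medians of 2927 and 1995 UMIs per cell. A cell without a UMI of 1 rule gene needed more of the others to enter, so these groups were not drawn alike.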

How the data were processed

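Messenger RNA was counted in single cells of 3 sorted populations, 1 library each, and the authors deposited UMI counts, whole numbers for each gene in each barcode that were not normalized. Per the submitters' processing notes Cell Ranger 2.0.1, STAR 2.5.1b and bcl2fastq 2.17 were used with mm10 as the genome, with roles and cell calling not given in the sources used here. Cells with at least 500 genes and at most 10% mitochondrial UMIs were kept: 810 of 812 in ALP, 1829 of 1834 in ILCpro_WT and 716 of 716 in ILCpro_KO. The tables hold 27998 genes, of which 16403 had a UMI. Gene locations came from GENCODE vM21 (GRCm38, the assembly named mm10), and sequences from RefSeq's GRCm38.p6 table.

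UMIs were summed per group of cells and scaled to CPM. Ratios on the log2 scale had 10 CPM added to both levels, and folds are plain ratios. A gene was counted as higher or lower past 2-fold with at least 50 CPM in the higher group, and list medians used genes with at least 5 CPM in either group. Intervals are Poisson, conditional binomial or Clopper-Pearson at 95%. With 1 library per group no test was run, and cells of 1 library share their source. Shares used cells thinned to 1000 UMIs, with unthinned values beside them. Doublets were kept. An alternative removed the highest Scrublet scores at 0.8% per 1000 barcodes, 1 of the 67 cells among 27.

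Neighbours and Leiden clusters came from scanpy 1.11.5 and leidenalg 0.10.2 (2000 variable genes, 30 components, 15 neighbours, resolution 1.0). The counting was tested on simulated data. The cells, the 25 gene lists and the alternatives were chosen with earlier results of these data known. Named genes are the rule genes, Gata3, Arg1, the 15 highest and 15 lowest ratios of each comparison with at least 50 CPM and 10 cells in the higher group (without gene models and without genes of ribosomes, mitochondria or sex chromosomes), the members of the ILC2 and precursor lists, and up to 4 of every other list with the largest ratios. Fyco1, Mki67, Stab1 and genes named beside a count of 6 or fewer were added after their values were seen. A few genes of these lists and counts are not reported here by name.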

Additional observations from a re-analysis of the deposited data

How the results depend on the processing

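No paired analysis was possible because each group has 1 library, and for the same reason no replicate could be left out. The 67 cells became 41 with at least 1000 genes and at most 5% mitochondrial UMIs, 29 in G1 alone and 36 without Icos in the rule. The 233 genes higher than in the rest became 137 with a sum of at least 2, 718 in G1 alone, 411 with cells thinned to 2000 UMIs, 362 without Icos and 427 with a minimum of 20 CPM. The 129 lower became 76 with that lower sum, 314 in G1 alone, 204 thinned and 338 with 20 CPM. Against Rora-high cells the 271 higher became 160 with a sum of at least 2, 678 in G1, 498 thinned, 426 without Icos and 500 with 20 CPM. The 138 lower became 77, 295, 246, 213 and 360 in the same order, and 211 with the 49 cells of their own cluster alone, an alternative chosen after seeing the data. What moved these counts was not tested. The effector median against Rora-high cells went from 0.35 to -0.11 as a mean over cells, while the receptor median stayed between 0.26 and 0.88 and the precursor median between -1.81 and -0.75 over 18 alternatives.

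Shares moved with depth. Gata3 went from 56.7% to 94.0% without thinning, Arg1 from 19.4% to 10.4% at 500 UMIs and 32.8% unthinned, and Zbtb16 from 1.49% to 0% at 500 UMIs and 11.9% unthinned.

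Of 208 single gene ratios past 2-fold, 180 kept their sign in each of up to 18 alternatives, 1 was at 0.0 in G1 alone (Bhlhe40 against Rora-high cells), and 27 values changed sign. Of these, 25 did so in G1 alone. Against the rest, their log2 ratios were -0.093 for Cd226 and Il4, -0.76 for Cenpf, -1.22 for Hist1h2ae, -0.30 for Hmmr, -1.52 for Lockd, -0.999 for Ly6a, 0.27 for Mcpt8, -0.22 for Rrm2, -0.41 for Tnfsf11, -0.45 for Tpx2 and -0.71 for Ube2c. Against Rora-high cells they were -0.12 for Cd226 and Cdc45, -0.59 for Cenpf and Tpx2, -0.81 for Hist1h2ae, -0.32 for Hmmr and Ube2c, -0.22 for Il4 and Rrm2, -1.51 for Lockd, -0.51 for Ly6a and -0.74 for Tnfsf11. Of these genes Cenpf, Hmmr, Tpx2, Ube2c, Rrm2 and Cdc45 are on the lists that gave the phases. Their levels in G1 cells are therefore partly set by that choice. Outside G1, Stat4 was at -0.95 against the rest with cells thinned to 2000 UMIs, and Bbc3 at -0.022 against Rora-high cells with at least 1000 genes. The cause was not tested.

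The 67 cells hold 190879 UMIs, so a gene with 3 UMIs has a level of 15.7 CPM with limits from 3.24 to 45.9, and single genes below about that level could not be compared.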

Other observations

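A few values belong to no comparison above. Chdh, the choline dehydrogenase gene next to Il17rb on chromosome 14 (30009023 to 30040527, plus strand), had 13 UMIs in 9 of the 67 ILC2-committed-like cells, at 68.1 CPM (36.3 to 116) against 8.47 in the rest of the library and 4.30 in Rora-high cells. It was looked up because its span begins inside the upstream window of Il17rb, and its values were seen before it was named. Cish, a feedback inhibitor of cytokine receptors that signal through STAT5, had 7 UMIs in 7 cells, 9.96-fold (2.87 to 35.9) above Rora-high cells. Jak3 had 5 UMIs in 5 cells, 4.74-fold (1.25 to 15.8) above them. Of 23 measured cytokine signalling genes these 2 were at least 2-fold higher than in Rora-high cells, and 1, Socs1, was lower. Over all genes 5.47% were higher and 5.54% lower. Among the Bcl2 family, Bcl2l11 and Bbc3, which promote cell death, had 8 UMIs each, at 41.9 CPM (18.1 to 82.6) against 12.9 and 14.1 CPM in Rora-high cells.

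Of the interferon response genes 1 of 7 was at least 2-fold higher than in Rora-high cells. This was Isg15, with 8 UMIs in 6 of the 67 cells at 41.9 CPM (18.1 to 82.6) against 7.98 CPM. The members of the cytokine signalling list had a median log2 ratio of -0.11 against Rora-high cells, beside 0.09 for all genes.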
